A study of Gallus gallus with 27 samples.

Results

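The respiratory chain and the ATP synthase of mitochondria are built mostly from proteins encoded in the nucleus, and the mRNA levels of their nuclear genes were followed here in 27 RNA-seq libraries of chicken (Gallus gallus) cells. The members were all rows of the deposited symbol table that begin with NDUF, UQCR, ATP5, COX4, COX5, COX6, COX7 or COX8, together with SDHA, SDHB, SDHC, SDHD and CYC1, and without ATP5A1W. This took 79 of 14161 rows. They comprise 34 genes of complex I, 8 genes named as complex I assembly factors (NDUFAF1 to NDUFAF8), 4 of complex II, 8 of complex III, 9 set beside complex IV, 15 of the ATP synthase (complex V) and the coupling factor ATP5S. NDUFA4 was counted beside complex IV, where its product is known to bind in mammals. CYC1, COX4I2, COX6A2, COX7A1, COX8A, NDUFA4L2 and the ATP synthase inhibitor ATP5IF1 were not analysed here. All 79 symbols matched a chicken gene in RefSeq (GRCg7b), 78 by symbol and ATP5A1Z by synonym.

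The libraries form 9 groups of 3, which the series design calls biological replicates. CEF2 and CEF4 were primary embryonic fibroblasts, labelled Broiler Ross 308 and Israeli Baladi. CF2 (Broiler Ross 308) and CF4 (Israeli Baladi) were spontaneously immortalized fibroblasts, and SCF2 and SCF4 were spontaneously immortalized fibroblasts grown without anchorage. Per the protocols CF2, CF4, SCF2 and SCF4 had all passed at least 120 population doublings. The breed field and the source name of SCF2 and SCF4 contradict each other, so the lines are called line 2 and line 4 after their numbers. DF1, an established chicken fibroblast line, and SDF1, its culture grown without anchorage, both carry the label East Lansing Line 0. FAT is labelled only as fat from Israeli Baladi, and the labels do not say whether it was tissue or cells; the protocol shared by its set of libraries describes a medium with oleic acid and lecithin for immortalized cells. Each number stands for 1 line, so a difference between lines cannot be told apart from a difference between breeds. The protocols describe suspension cells raised from spheroids of the immortalized fibroblasts, and no transgene is named for any group.

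Complex I takes electrons from NADH and complex II from succinate, both pass them through ubiquinone to complex III, and cytochrome c carries them to complex IV, which reduces oxygen. Complexes I, III and IV pump protons, and the ATP synthase uses the gradient to make ATP. Of these machines only complex II is encoded wholly in the nucleus; the others also need subunits made from mitochondrial DNA (mtDNA), so both genomes contribute to 1 structure. Fibroblasts in culture are known to draw much of their ATP from glycolysis, and muscle and heart are known for high levels of these genes.

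Values are normalized reads, that is reads per gene divided by 1 factor per library. The cultured libraries held 12257468 to 28747324 reads in this table and the FAT libraries 4612848 to 10435094, so that 1 read equals 0.294 to 0.725 normalized reads in culture and 1.52 to 3.16 in FAT. The 79 genes were well covered, with 15 reads or more in every library and a lowest group mean of 38.9 normalized reads (NDUFAF8 in CEF2), and all 79 passed the filter in every comparison. Libraries of a group correlated at r = 0.98 to 0.998 over all rows, except DF1 (0.954 to 0.994) and FAT (0.915 to 0.956). Replicate 3 of DF1 and replicate 3 of FAT stood apart from their groups in these genes, and results that rest on them are given with and without them. CEF2, CEF4, SCF2 and SCF4 form the set of 12 libraries with a deposited count table, and CF2, CF4, DF1, SDF1 and FAT the 15 others, so in comparisons of CF with CEF or SCF the set and the condition cannot be told apart.

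The share of a library's normalized reads in the 79 genes was lowest in the primary fibroblasts and higher in every line. They took 0.573% to 0.67% of the normalized reads of a CEF2 library and 0.493% to 0.614% in CEF4. CF4 stood at 0.794% to 0.821% and CF2 at 0.907% to 0.938%. SCF2 ranged from 0.873% to 1.17% and SCF4 from 0.958% to 1.16%, so neither suspension line overlapped the primary culture of its number. SDF1 lay within 0.971% to 0.981%. DF1 was at 1.27% and 1.29% in replicates 1 and 2 and at 0.811% in replicate 3, and FAT at 0.856% and 0.892% in replicates 1 and 2 and at 1.68% in replicate 3. In summed normalized reads, the quantity of the plot by complex, CF4 (65427 ± 923, SD, n = 3) did not stand above CEF2 (65750 ± 6753, SD, n = 3). The CF4 libraries also have smaller sums over all rows than the CEF2 libraries. In bulk RNA, fewer cells of a type and less RNA per cell cannot be told apart.

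**Figure D1:**
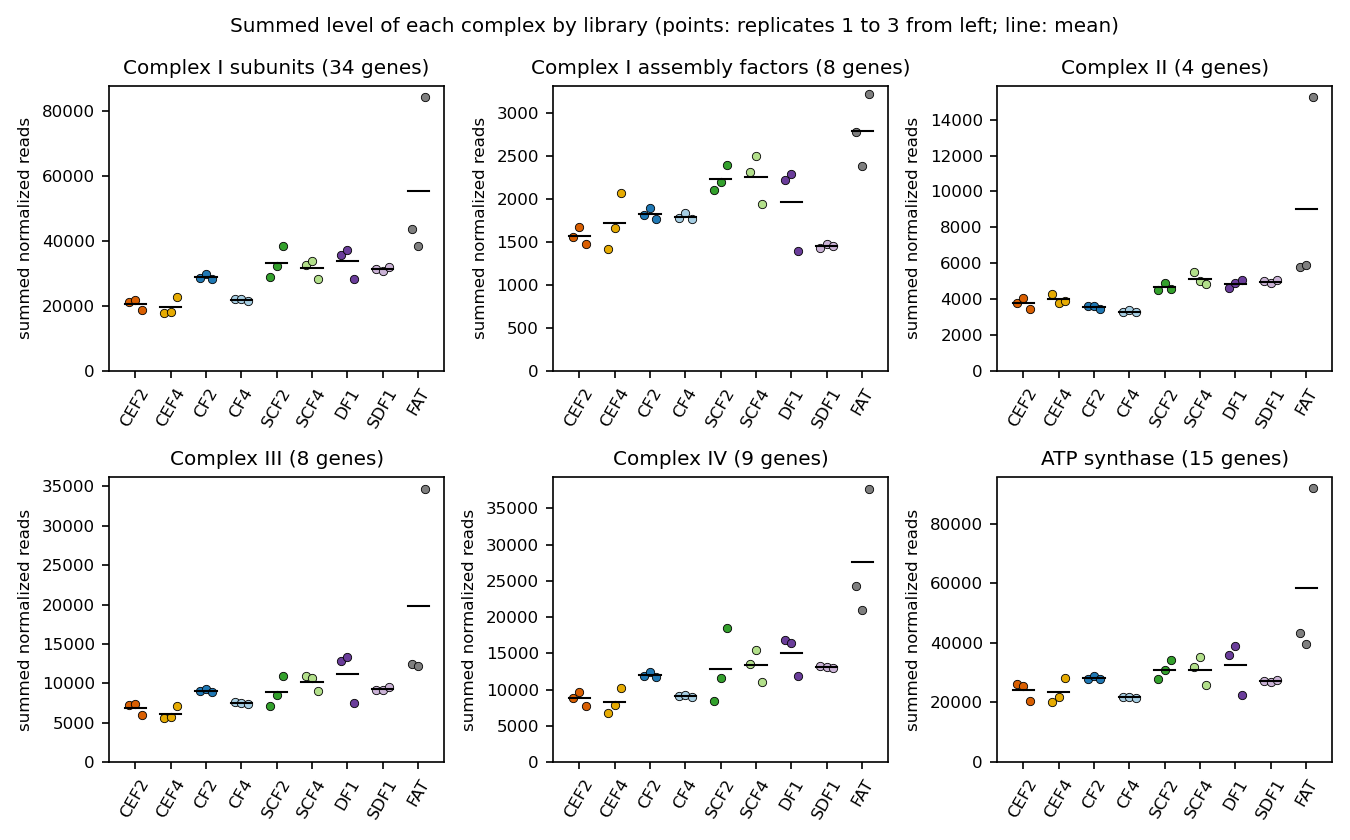
Summed normalized reads (y axis, from 0) of the members of each complex in each library by group (x axis); points are replicates 1 to 3 from left to right and lines the mean of 3. For complex I the 3 SCF2 libraries (28873 to 38533) and the 3 SCF4 libraries (28274 to 33891) lie above all 6 CEF libraries (17884 to 22823), and FAT replicate 3 (84357) lies far above every other library.

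Within a group the members tended to shift together. CEF4 replicate 3 was the highest of its group for 61 of the 79 genes, with a median log2 offset of 0.40 from the other 2, while over all rows the offset was 0.01. CEF2 replicate 3 was the lowest of its group for 62. SCF2 replicate 1 was the lowest for 66 and replicate 3 the highest for 62, with median offsets of -0.41 and 0.46. SCF2 replicate 3 is also the shallowest library of its group, with 14701827 reads, and its 67 cytosolic ribosomal protein genes, a list chosen after values were seen, took 6.38% of the library against 4.12% and 4.76%. The part of depth and of ribosomal mRNA in these offsets was not tested. CF2, CF4 and SDF1 libraries differed from their own group by a median offset of at most 0.07 in size.

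**Figure D2:**
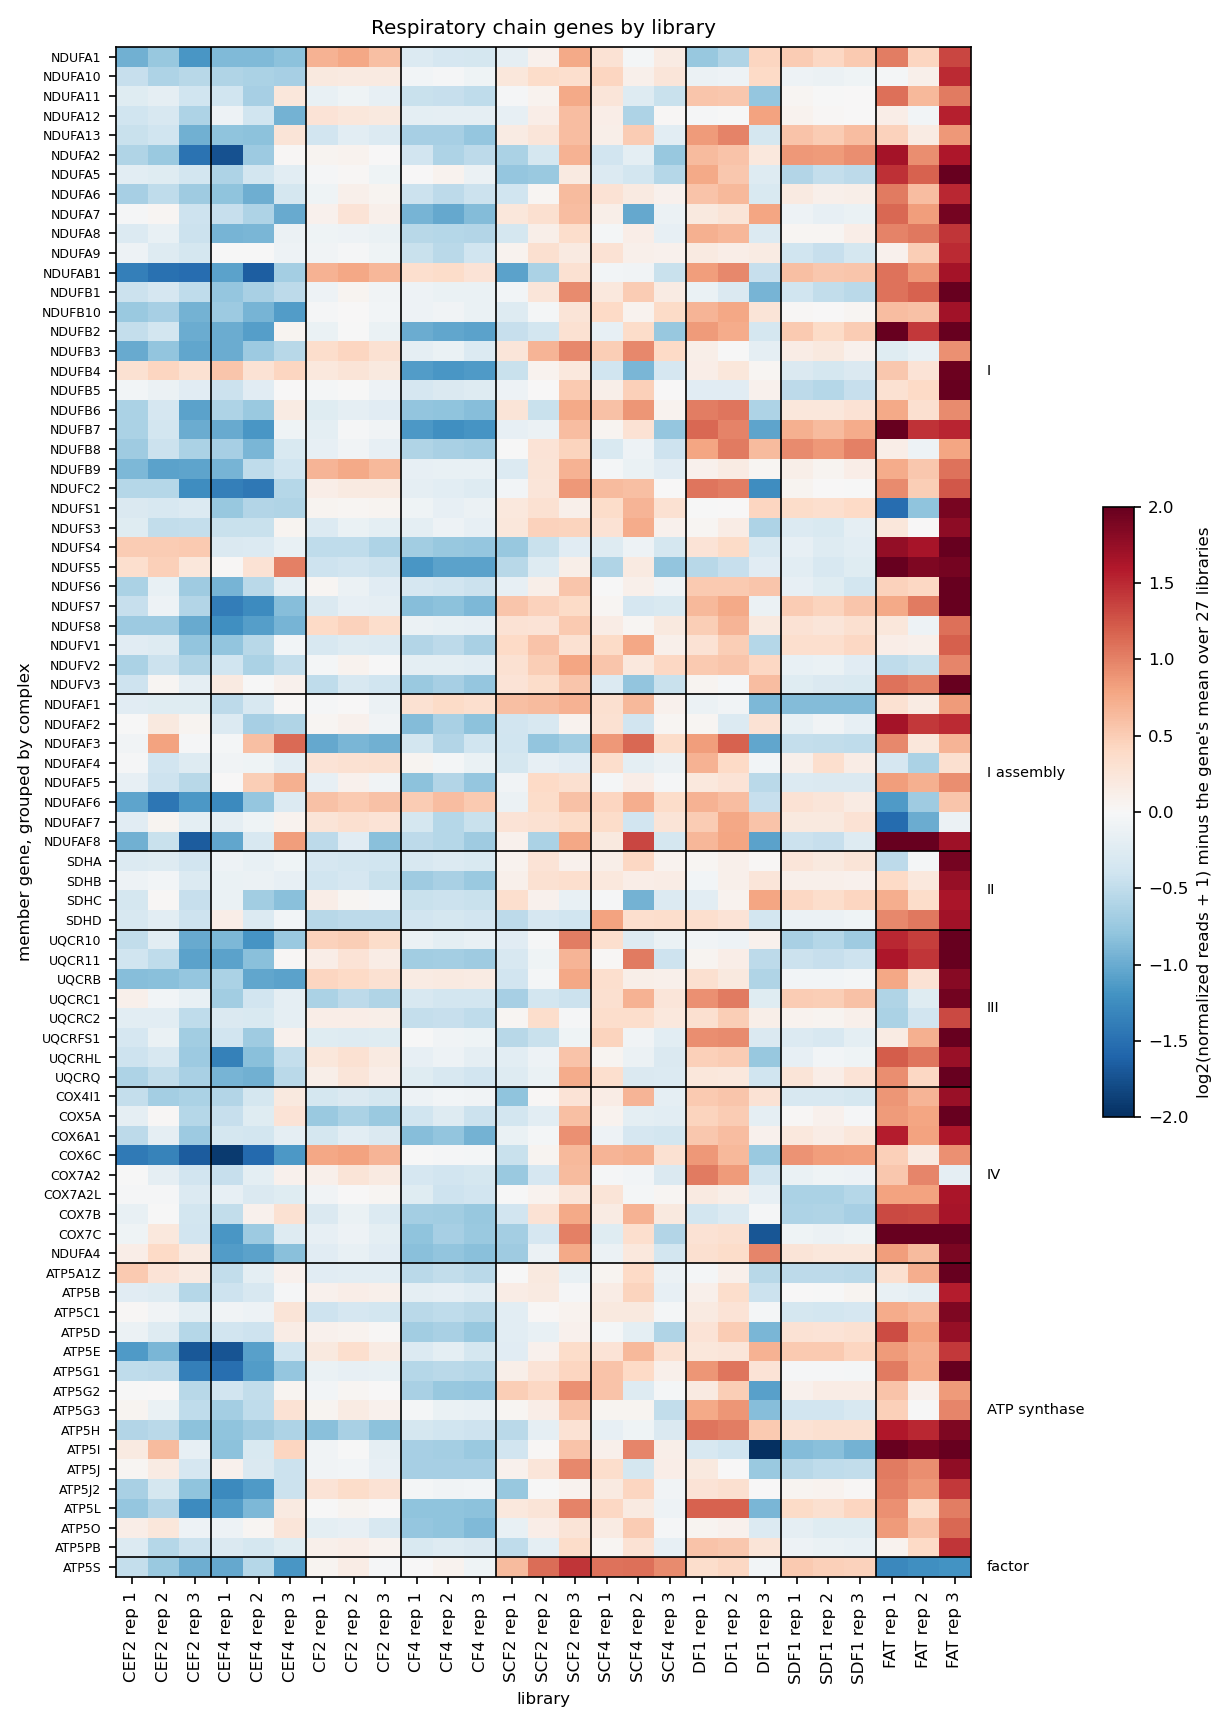
Colour map of log2(normalized reads + 1) of 78 members (rows, grouped by complex) in each of the 27 libraries (columns) minus the gene's mean over all libraries, cut at 2 in either direction (red higher, blue lower). CEF columns are mostly blue, FAT replicate 3 is red in most rows, and DF1 replicate 3 differs in many rows from replicates 1 and 2.

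Both suspension lines held more mRNA of these genes than the primary fibroblasts of the same number. Changes are log2 differences of normalized reads plus 1, given with their SE from limma, and a gene is called at a Benjamini-Hochberg adjusted p under 0.05 over all rows tested. In SCF2 against CEF2, 44 of the 79 genes rose, 3 fell and 32 were not called; 29.8% of all 13001 rows tested were called higher and 37.1% lower (66.8% in all), against 55.7% and 3.8% of the members. The median change of the members was 0.52, against -0.08 over all rows. In SCF4 against CEF4, 42 rose and 3 fell (background over all rows 30.5% higher, 33.8% lower and 64.3% in all), with a median of 0.55 against -0.04. Quantile normalization narrowed the gap to all rows. With it 57% of the members and 41.2% of all rows were called higher in SCF2, with medians of 0.54 and 0.22. In SCF4 the shares were 55.7% and 37.7%, with medians of 0.58 and 0.17. The 34 genes that rose in both lines are 77.3% of those that rose in line 2 and 81% of those that rose in line 4, and the 2 comparisons share no library. The matching overlap over all rows is not given, so this overlap is a description and not a trait of the family. Left out 1 library at a time, 32 of the 44 and 29 of the 42 rises were called in every fit, as were 1 of the 3 falls in line 2 and 2 of the 3 in line 4. Without SCF2 replicate 3, 35 rose and 7 fell in line 2 (background 28.8% and 35.5%).

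CEF2 held skeletal muscle mRNA that SCF2 did not: the 13 measured of 15 muscle markers summed to 0.122% to 0.135% of the CEF2 libraries, mostly ACTA1 (10028, 11199 and 9962 normalized reads), against at most 0.000198% in SCF2, where 7 of the markers were at 0. In CEF4 they summed to 0.00261% to 0.00338%, and cartilage markers to 2.23% to 3.11%, against at most 0.000449% in SCF4. The part of these cells in the changes was not tested.

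The attached lines differed from the primary cultures less uniformly. In CF2 against CEF2, 33 members rose and 8 fell (background 29.6% and 42.6%, or 72.2% in all), with a median of 0.33 against -0.18 over all rows. This excess of rises depended on the scaling of the libraries. With quantile normalization 43% of the members and 43% of all rows were called higher, and 12.7% and 30.2% lower. The medians were then 0.31 for the members and 0.21 over all rows. In CF4 against CEF4, 23 rose and 18 fell (background 31.2% and 39%, or 70.2% in all), which is 29.1% and 22.8% of the members, so the share that rose was no higher than that of all rows. Of the genes that rose, 21 did so in both lines, 63.6% and 91.3% of the 2 lists, and 7 fell in both: NDUFS4, NDUFS5, NDUFAF3, SDHB, ATP5A1Z, ATP5C1 and ATP5O. These overlaps too stand without the overlap over all rows. In CF4 the groups of ATP5A1Z overlapped, and its call (adjusted p = 0.0472) was lost with quantile normalization (adjusted p = 0.258) and with edgeR (adjusted p = 0.0542). Without CEF4 replicate 3 the CF4 counts were 28 and 12 (background 30.9% and 37.2%). The SCF and CF comparisons share their CEF libraries and are set side by side only.

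Suspension against attached culture gave a different picture in the 2 lines. In SCF4 against CF4, 52 members rose and none fell (background 27.3% and 18.4%, or 45.7% in all), with a median of 0.57 against 0.06. An unadjusted limma p under 0.05 was found for 56 members. With edgeR, 45 were called higher and 2 lower (background 22.5% and 21.4%). In SCF2 against CF2, 19 rose and 6 fell (background 25.2% and 18.3%, or 43.5% in all), 24.1% and 7.59% of the members, and the median was 0.16 against 0.03. The line 2 counts moved with single libraries: 13 and 12 without SCF2 replicate 3 (background 25.6% and 17.9%), 24 and 2 without SCF2 replicate 1 (22.7% and 17.2%), and 16 in all without CF2 replicate 1. The 15 genes that rose in both lines include NDUFS3, NDUFS7, NDUFV1, NDUFV2, SDHA, SDHB, ATP5C1 and ATP5S. For this overlap too no value over all rows is given. The difference of this contrast between lines was not tested. In summed normalized reads of the members the suspension groups were alike, with means of 93100 in SCF2 and 93805 in SCF4. The attached groups were apart, with CF4 (65427) below CF2 (83609). CF and SCF also belong to different sets of libraries, so set and culture form cannot be told apart here.

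**Figure D3:**
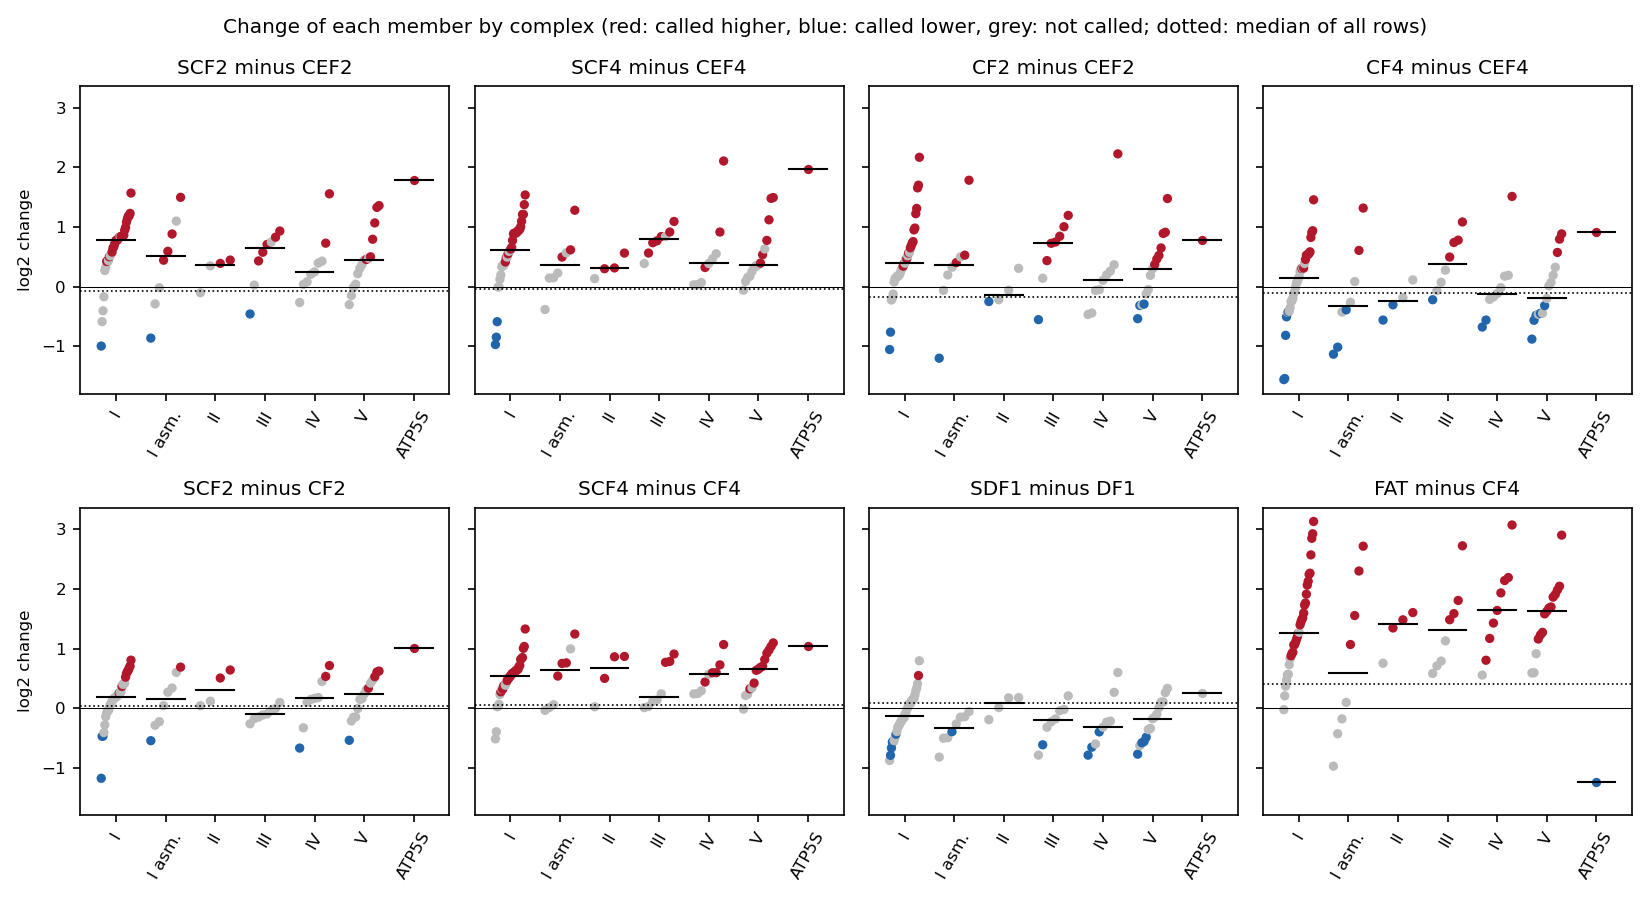
Log2 change (y axis) of each of the 79 members in 8 comparisons, by complex (x axis; I asm. is the 8 assembly factors), coloured red where called higher, blue where called lower and grey where not called; solid lines are the median of a complex and dotted lines the median over all rows. Red points fill the SCF4 minus CF4 panel with no blue, while the CF4 minus CEF4 panel holds 23 red and 18 blue points.

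In complex I, 24 of 34 genes rose and 1 fell in SCF2 against CEF2, and 20 rose and 3 fell in SCF4 against CEF4, with medians of 0.77 and 0.62. The shares over all rows that belong beside these counts, and beside those of the other complexes, are given above for each comparison. NDUFV1, NDUFV2, NDUFS1, NDUFS3, NDUFS7 and NDUFS8 encode core subunits of the part that passes electrons from NADH to ubiquinone. These 6 rose in both lines. NDUFV1, which binds NADH and flavin, was at 1710.2, 1677 and 1158 in the 3 CEF2 libraries and at 2631, 2964 and 2459 in SCF2. In line 4 it was at 1152, 1366 and 1916 in CEF4 and 2613, 3419.5 and 2135 in SCF4. Neither pair of groups overlapped, and the changes were 0.84 ± 0.21, adjusted p = 0.00236, and 0.89 ± 0.21, adjusted p = 0.00169. In the attached lines NDUFV1 stood at 1607 to 1669 in CF2 and 1275 to 1388 in CF4, and it was called in neither against CEF (0.14 and -0.12) but rose in SCF against CF in both lines (0.71 and 1.003). NDUFS1, the largest core subunit, was at 1277, 1447 and 1436 in CEF4 and 2798, 3485 and 2673 in SCF4 (1.10 ± 0.11, adjusted p = 5.32e-07), and rose less in line 2 (0.50 ± 0.11, adjusted p = 8.46e-04). The line difference of 0.60 ± 0.15, adjusted p = 0.00624 was called, and the 2 groups of each line did not overlap.

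Among the accessory subunits, NDUFB3 and NDUFC2 gave the largest rises by the naming rule. NDUFB3, a small subunit of the membrane arm, went from 425, 493 and 418 in CEF2 to 1016, 1366 and 1662 in SCF2 (1.57 ± 0.18, adjusted p = 3.63e-06), with no overlap. NDUFC2, also of the membrane arm, went from 262, 249.5 and 455 in CEF4 to 1046, 1032 and 679 in SCF4 (1.54 ± 0.28, adjusted p = 2.42e-04), again with no overlap. NDUFAB1, the mitochondrial acyl carrier protein, behaved differently, since it was highest in the attached lines. It was at 236, 217 and 212 in CEF2, 992, 1046 and 964 in CF2 and 289, 395 and 756 in SCF2. CF2 lay above both other groups without overlap; NDUFAB1 rose by 2.17 ± 0.25, adjusted p = 4.16e-07, over CEF2 and was lower in SCF2 than in CF2 (-1.18 ± 0.25, adjusted p = 9.56e-04). In line 4 NDUFAB1 was at 291, 195 and 382 in CEF4 and 772, 785 and 743 in CF4 (1.46 ± 0.25, adjusted p = 5.20e-05), and at 587, 585 and 448 in SCF4, where the change against CF4 was -0.52 and not called by limma. NDUFA1 and NDUFB9, accessory subunits too, also stood highest in CF2 among the line 2 groups, at 772, 814 and 719 and at 1668, 1749 and 1632; against CEF2 they rose by 1.66 and 1.70 in CF2 and by 1.19 and 1.23 in SCF2.

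A few complex I genes went the other way. NDUFS4, an accessory subunit needed for a stable NADH module in mammals, was at 504, 502 and 506 in CEF2, 248, 249 and 229 in CF2 and 207, 258 and 299.8 in SCF2. CEF2 lay above both lines with no overlap, and NDUFS4 fell, changing by -0.997 ± 0.13, adjusted p = 9.89e-06 in SCF2 and by -1.06 ± 0.11, adjusted p = 8.18e-08 in CF2. CEF4 started lower, at 289, 292 and 317, and SCF4 was at 293, 329.8 and 275, so that the line difference was 0.99 ± 0.18, adjusted p = 6.94e-04. NDUFS4 lies on the Z chromosome in RefSeq, as do NDUFAF2, COX7C, ATP5I and ATP5A1Z. The part of the sex of the cells in the changes of these genes was not tested. NDUFS5 was at 647, 777 and 1279 in CEF4 and 284, 303 and 301 in CF4 (-1.54 ± 0.23, adjusted p = 9.37e-06); in CF2 it fell, changing by -0.76 ± 0.23, adjusted p = 0.00654. It is an accessory subunit of the membrane arm. In SCF4 it also fell (-0.85 ± 0.26, adjusted p = 0.0119), but that call was lost without SCF4 replicate 3 or CEF4 replicate 3 (adjusted p up to 0.0611). NDUFB4, another membrane arm subunit, was at 966, 804 and 892 in CEF4, 501, 350.1 and 522 in SCF4 and 305, 294 and 299.6 in CF4, which are 3 separate ranges. It fell, changing by -0.97 ± 0.17, adjusted p = 1.92e-04 in SCF4 and by -1.56 ± 0.15, adjusted p = 2.52e-08 in CF4, while CF2 stayed at 755 to 788 beside 815 to 886 in CEF2 and was not called.

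NDUFV3, an accessory subunit of the NADH module, moved in opposite directions in the 2 suspension lines. It went from 285, 389 and 335 in CEF2 to 458, 488 and 557 in SCF2 and from 432, 376 and 402 in CEF4 to 314, 219.7 and 278 in SCF4. Neither pair overlapped, NDUFV3 rose by 0.58 ± 0.15, adjusted p = 0.00318 in line 2 and fell, changing by -0.59 ± 0.15, adjusted p = 0.00301 in line 4, and the line difference was -1.17 ± 0.21, adjusted p = 5.57e-04. Among the assembly factors, which help build complex I and are not part of it, NDUFAF1 and NDUFAF6 rose in both suspension lines and NDUFAF6 also in both attached lines. NDUFAF6 was at 50.04, 37.8 and 46.4 in CEF2 and 158, 151 and 158 in CF2 (1.79 ± 0.21, adjusted p = 4.00e-07), and at 42.7, 60.9 and 86.8 in CEF4 and 149, 161 and 150.4 in CF4 (1.32 ± 0.21, adjusted p = 1.74e-05). Both pairs were free of overlap. NDUFAF3 fell in both attached lines, by -1.20 ± 0.26, adjusted p = 4.32e-04 in CF2 and by -1.02 ± 0.26, adjusted p = 0.00191 in CF4, and SCF4 (286, 346 and 202) lay above CF4 (121, 104 and 119) with 1.24 ± 0.26, adjusted p = 7.29e-04. In line 2 NDUFAF3 also fell in SCF2 against CEF2 (-0.86 ± 0.29, adjusted p = 0.0184), a call lost with quantile normalization (adjusted p = 0.064). SCF2 against CF2 was not called (0.34). NDUFAF5, which modifies the core subunit NDUFS7 in humans, was at 155, 218 and 255 in CEF4 and 86.9, 103 and 90.05 in CF4 (-1.13 ± 0.17, adjusted p = 6.96e-06); its line difference in suspension was -0.98 ± 0.26, adjusted p = 0.00937.

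Complex II is the succinate dehydrogenase of the citric acid cycle, with the flavoprotein SDHA, the iron-sulfur protein SDHB and the membrane anchors SDHC and SDHD. SDHB was at 1116, 1148 and 986 in CEF2, 909.7, 945 and 872 in CF2 and 1274, 1477 and 1508 in SCF2, and at 1086, 1101 and 1062 in CEF4, 728, 758 and 717 in CF4 and 1375, 1308 and 1320.3 in SCF4. In both lines the attached culture was lowest, the primary culture in between and the suspension culture highest, with no overlap. SDHB fell, changing by -0.25 ± 0.08, adjusted p = 0.00721 in CF2 and by -0.56 ± 0.08, adjusted p = 3.09e-06 in CF4, and rose by 0.39 ± 0.09, adjusted p = 0.00213 in SCF2 and by 0.30 ± 0.09, adjusted p = 0.0118 in SCF4. Against the attached culture SDHB rose by 0.64 ± 0.08, adjusted p = 2.05e-06, in SCF2 and by 0.86 ± 0.08, adjusted p = 1.07e-07, in SCF4. SDHA, at 1206, 1181 and 1156 in CF2 and 1216, 1256 and 1234 in CF4, rose to 1594, 1841 and 1605 in SCF2 and 1649.6, 2019.7 and 1598 in SCF4 (by 0.51 and 0.50). Against CEF4 the rise of SDHA in SCF4 was 0.31 ± 0.10, adjusted p = 0.0155, and that call was lost without SCF4 replicate 2 or CEF4 replicate 2 (adjusted p up to 0.071). SDHD rose in SCF4 alone of the 2 suspension lines, from 1096, 827 and 962 in CEF4 to 1738, 1268 and 1276 (0.56 ± 0.13, adjusted p = 0.00214), with SCF2 at 696 to 788 beside 749.5 to 859.6 in CEF2 and a line difference of 0.67 ± 0.19, adjusted p = 0.0131. SDHC was called in none of the culture comparisons, with changes from -0.29 to 0.35.

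In complex III, which passes electrons from ubiquinol to cytochrome c, 5 of 8 genes rose and 1 fell in SCF2 against CEF2, and 6 rose in SCF4 against CEF4. In the attached lines 6 of 8 rose and 1 fell in CF2 and 4 rose and 1 fell in CF4, and SCF2 against CF2 gave no call in either direction (median -0.11). UQCRB, a small subunit near the quinone site, was at 558, 560.3 and 589 in CEF2, 1347, 1325 and 1244 in CF2 and 768, 976 and 1714 in SCF2, and at 649, 486 and 480, 1123, 1143 and 1128 and 1264, 1086 and 1074 in CEF4, CF4 and SCF4. The primary cultures lay below both kinds of line without overlap; against them UQCRB rose by 1.20 ± 0.19, adjusted p = 1.89e-05 in CF2 and by 1.08 ± 0.19, adjusted p = 5.70e-05 in CF4. In SCF2 and SCF4 it rose by 0.93 and 1.09, or by 0.60 without SCF2 replicate 3.

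UQCRC1, a core subunit that faces the matrix, gave the largest line difference of the family. It was at 2076, 1869 and 1742 in CEF2 and 1213, 1499 and 1432 in SCF2, and at 1187, 1479 and 1715 in CEF4 and 2413, 3133 and 2287 in SCF4. The line 4 groups are apart with SCF4 higher (0.84 ± 0.15, adjusted p = 1.96e-04), and the line 2 groups are apart with SCF2 lower (-0.46 ± 0.15, adjusted p = 0.0145). For the fall in line 2, that call was lost without SCF2 replicate 1 or CEF2 replicate 1 (adjusted p up to 0.0662), whereas the line difference of 1.30 ± 0.21, adjusted p = 2.61e-04 was called in every such fit. UQCRC2, its partner core subunit, rose by 0.43 ± 0.11, adjusted p = 0.0041 in SCF2 and by 0.56 ± 0.11, adjusted p = 5.77e-04 in SCF4. UQCRFS1, the Rieske iron-sulfur protein, was called in no comparison, and ranged from 681 to 1508 over the libraries outside DF1 and FAT.

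In complex IV, cytochrome c oxidase, 2 of 9 genes rose in SCF2 and 3 of 9 in SCF4 against primary culture, with medians of 0.25 and 0.39. Over all rows 29.8% and 30.5% were called higher in these comparisons, so the counts do not set complex IV apart from other genes. COX6C, a small subunit of the membrane part, changed most. It was at 961, 1007 and 802 in CEF2, 4386, 4458 and 4086 in CF2 and 1879, 2646 and 3986 in SCF2. In line 4 it was at 679, 869 and 1147 in CEF4, 2540.2, 2500.3 and 2482 in CF4 and 4104, 4194 and 3155 in SCF4. All 6 primary libraries lay below all 12 libraries of these lines, and COX6C rose by 1.56 ± 0.24, adjusted p = 4.88e-05 in SCF2, by 2.11 ± 0.24, adjusted p = 2.56e-06 in SCF4, by 2.23 ± 0.21, adjusted p = 1.88e-08 in CF2 and by 1.51 ± 0.21, adjusted p = 3.17e-06 in CF4. Between the lines the suspension cultures differed from the attached ones in opposite directions, -0.67 in line 2 and 0.59 in line 4; in line 2, that call was lost without SCF2 replicate 1 (adjusted p = 0.101), and in line 4, that call was lost without SCF4 replicate 1, SCF4 replicate 2, CF4 replicate 1, CF4 replicate 2 or CF4 replicate 3 (adjusted p up to 0.0874).

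NDUFA4 was at 1575, 1881 and 1628 in CEF2 and 658, 679 and 804 in CEF4, the largest difference of any member between the primary cultures (-1.25 ± 0.27, adjusted p = 0.00208). In line 4 it rose to 1316, 1664 and 1106 in SCF4 (0.92 ± 0.27, adjusted p = 0.0086), while SCF2, at 869.8, 1314 and 2429, overlapped CEF2 and was not called. COX4I1, a regulatory subunit that binds ATP in mammals, was at 1412 to 2578 in the 6 primary libraries and 1295 to 3622 in the 6 suspension ones, and was not called in either line (0.43 and 0.47). COX5A, which sits beside it, changed by 0.25 and 0.03, and COX7A2 by 0.04 and 0.07, also not called. COX6A1 rose by 0.73 in SCF2, or by 0.40 without SCF2 replicate 3, and was at 0.03 in SCF4, not called. COX7A2L, known in mammals for joining complexes III and IV, rose by 0.44 ± 0.10, adjusted p = 0.00124 in SCF4 against CF4, where the ranges were 373 to 419.6 and 484 to 598.

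In the ATP synthase, 6 of 15 genes rose and none fell in each suspension line against CEF, with medians of 0.45 and 0.37. ATP5G1 encodes 1 of the 3 nuclear copies of the rotating c subunit, and its level was 724, 722 and 401 in CEF2 and 1122, 1247 and 1388 in SCF2, and 364, 474 and 606 in CEF4 and 1536, 1371 and 1115 in SCF4. Both pairs were apart, with rises of 1.07 ± 0.22, adjusted p = 7.70e-04, and 1.49 ± 0.22, adjusted p = 4.26e-05. The other copies encode the same mature protein in mammals: ATP5G2 rose in SCF2 (0.80) and not in SCF4 (0.37, not called), and ATP5G3 was called in no comparison. ATP5E, the epsilon subunit of the central stalk, went from 397, 461 and 268 to 746, 929 and 1129 in line 2 and from 264, 408 and 660.3 to 1052, 1366 and 1079 in line 4. It rose by 1.33 ± 0.28, adjusted p = 7.80e-04, and by 1.48 ± 0.28, adjusted p = 3.29e-04, with no overlap. ATP5B, the catalytic beta subunit, was at 7388, 7279.6 and 5837 in CEF2 and 9595, 9839 and 8565 in SCF2; it rose by 0.45 ± 0.15, adjusted p = 0.0165, and that call was lost without SCF2 replicate 2 or CEF2 replicate 3 (adjusted p up to 0.0841). In line 4 its groups overlapped, at 6494, 6993 and 8569 in CEF4 and 9653, 11803 and 7756 in SCF4 (0.39 ± 0.15, adjusted p = 0.0347), and that call was lost without SCF4 replicate 1, SCF4 replicate 2, CEF4 replicate 1 or CEF4 replicate 2 (adjusted p up to 0.164).

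ATP5C1, the gamma subunit of the stalk, and ATP5O, which links the catalytic head to the stator, fell in both attached lines and rose in suspension over CF4. ATP5C1 was at 1404, 1382 and 1774 in CEF4, 1014, 1043 and 1005 in CF4 and 1686, 1698 and 1445 in SCF4 (-0.56 in CF4 against CEF4 and 0.65 ± 0.10, adjusted p = 4.26e-05 in SCF4 against CF4). ATP5O was at 1700.1, 1883 and 2160, 1070.4, 1040.1 and 994 and 2034, 2604 and 1804 in the same groups (-0.88, and 1.04 ± 0.13, adjusted p = 5.02e-06). For both genes CF4 lay below the other 2 groups without overlap. In line 2 the falls were smaller, -0.29 and -0.32; for ATP5C1, that call was lost without CEF2 replicate 1 (adjusted p = 0.0711), and for ATP5O, that call was lost without CF2 replicate 1, CF2 replicate 2, CF2 replicate 3, CEF2 replicate 1 or CEF2 replicate 2 (adjusted p up to 0.146). ATP5A1Z is the alpha subunit copy on the Z chromosome, and reads of the similar copy ATP5A1W may be split between the 2 rows, so its values are uncertain. ATP5A1Z was at 4668, 3939 and 3680 in CEF2 and 3259.5, 3749.5 and 2955 in SCF2, and ATP5A1W at 695, 656 and 612 and 1373, 1652 and 1428. In line 4 ATP5A1Z was at 2309, 2851 and 3451 in CEF4 and 3388, 4287 and 3019 in SCF4, and ATP5A1W at 1462, 1762 and 1985 and 2809, 3328 and 2516.

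ATP5S, a factor described in mammals as coupling the parts of the ATP synthase, rose the most of all members in suspension against primary culture by the naming rule in line 2 and second most in line 4. It was at 118, 97.9 and 82.7 in CEF2, 169.9, 182 and 161 in CF2 and 256, 359 and 444 in SCF2. In line 4 it was at 79.95, 110.1 and 72.7, 164, 172 and 155 and 348, 354 and 318 in CEF4, CF4 and SCF4. The 3 culture forms stood in the same order in both lines, each apart from the next: it rose by 1.80 ± 0.21, adjusted p = 2.80e-06, and 1.97 ± 0.21, adjusted p = 1.17e-06, over CEF, and by 1.01 ± 0.18, adjusted p = 1.45e-04, and 1.05 ± 0.18, adjusted p = 1.11e-04, over CF. FAT was the lowest group, at 66.4, 69.7 and 71.5, and with all libraries it was the only member to fall in FAT against CF4 (-1.23 ± 0.17, adjusted p = 6.92e-04).

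In SCF4 against CF4 the largest rises by the naming rule were NDUFB6, NDUFAF3 and ATP5I. NDUFB6, of the membrane arm of complex I, was at 496, 491 and 478 in CF4 and 1287, 1591 and 903 in SCF4 (1.33 ± 0.27, adjusted p = 5.84e-04), and ATP5I, a membrane subunit of the ATP synthase, at 395, 392 and 374 and 675, 1237 and 678 (1.09 ± 0.29, adjusted p = 0.00474). SCF4 lay above CF4 in both. In SCF2 against CF2, NDUFV3 rose from 267, 304 and 287 to 458, 488 and 557 (0.80 ± 0.13, adjusted p = 5.11e-05). COX5A rose from 641, 688 and 642 to 830, 928 and 1628 (0.71 ± 0.21, adjusted p = 0.0102), and that call was lost without SCF2 replicate 3 (adjusted p = 0.0691). NDUFAF4, an assembly factor, was lower in SCF2, at 164, 185 and 178 against 252, 256 and 261 (-0.55 ± 0.13, adjusted p = 0.00181).

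Between the primary cultures few members were called. Few calls do not show equal levels, since replicate 3 of CEF2 and of CEF4 stood off from its group in these genes (median offsets -0.28 and 0.40). In CEF4 against CEF2, 1 member was higher and 7 lower (background 16.7% and 22.4%, or 39.1% in all), and the median change was -0.03. Besides NDUFA4, the largest falls by the naming rule were NDUFS7, another core subunit, at 442, 565 and 404 in CEF2 and 231, 254 and 334 in CEF4 (-0.79 ± 0.16, adjusted p = 0.00119), and NDUFS4 (-0.75 ± 0.13, adjusted p = 3.43e-04). Without CEF2 replicate 1 the calls came to 5. Of the 79 line differences in suspension, 7 were called higher in line 4 and 3 lower (background 22% and 17.3%, or 39.2% in all), so that 69 did not pass; without CEF2 replicate 2, 6 were called.

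Against primary culture, the subunits encoded in mtDNA rose in suspension line 2, as the nuclear ones did, but fell in suspension line 4. Of 13 protein-coding genes of mtDNA, 9 were measured in the table (ND1, ND3, ND4, ND4L, ND6, CYTB, COX3, ATP6 and ATP8). In line 2 they rose from 1.23% to 1.33% of the CEF2 libraries to 3.22% to 4.34% in SCF2, and 8 of the 9 were called higher (median 1.31). The attached CF2 libraries stood at 2.87% to 3.27%, so this rise over primary culture is not particular to suspension. In line 4, 8 of 9 fell (median -1.38), with 0.838% to 2.59% in CEF4 and 0.409% to 1.26% in SCF4, ranges that overlap. All 9 line differences were called, with a median of -2.74, beside member medians of 0.52 and 0.55 in lines 2 and 4. CYTB, the mtDNA subunit of complex III, was at 27657, 27878 and 27688 in CEF2 and 63922, 48034 and 66659 in SCF2, against 56027, 31988 and 17404 in CEF4 and 10553, 3641 and 12455 in SCF4. The change was 1.09 ± 0.42 in line 2 and -2.01 ± 0.42 in line 4 (adjusted p = 0.0326 and 7.08e-04), and the groups of each line did not overlap. With 1 library left out, 6 to 8 genes rose in line 2 and 6 to 9 fell in line 4; quantile normalization gave 6 falls in line 4.

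In the attached lines the mtDNA genes were high in CF2 and low in CF4, and the difference between these lines was not tested. CF2 had 2.87% to 3.27% of its reads in the mtDNA genes and CF4 0.464% to 0.673%. Against CEF, 7 rose in CF2 (median 0.96; 4 without CF2 replicate 1 or 2 or CEF2 replicate 1), and 8 fell and 1 rose in CF4 (median -1.95; 4 fell with quantile normalization, median -0.78). Against CF, 1 mtDNA gene rose and 1 fell in SCF2 (median 0.33), and 4 rose and 1 fell in SCF4 (median 0.79). The rises in SCF4 came to 1 without SCF4 replicate 1 and to 6 without SCF4 replicate 2. ATP8 stood apart from the other mtDNA genes. It was at 58.0 to 327 normalized reads in the 12 libraries with deposited counts and at 344.5 and 482 in replicates 1 and 2 of DF1, but at 932 or more in the 13 other libraries, up to 25554 in FAT. ATP6, whose reading frame overlaps that of ATP8 in vertebrates, showed no such split, at 27299, 26772 and 27112 in CEF2, 72355, 65149 and 92424 in SCF2 and 58881, 64002 and 55354 in CF2. The changes of ATP8 across sets, such as 5.39 ± 0.30 in CF2, cannot be told apart from the set of libraries.

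**Figure D4:**
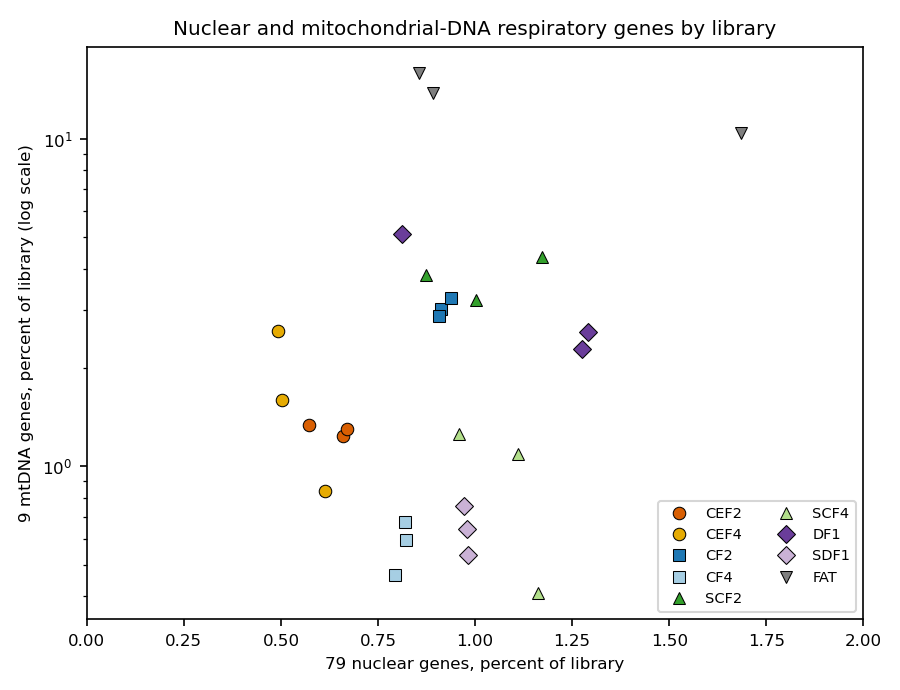
Percent of each library's normalized reads in the 79 nuclear members (x axis) and in the 9 measured mtDNA genes (y axis, log scale), 1 point per library and 1 symbol and colour per group. SCF2 and SCF4 lie at similar nuclear shares (0.873% to 1.17% and 0.958% to 1.16%) but at 3.22% to 4.34% and 0.409% to 1.26% on the mtDNA axis.

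In the DF1 pair most members were not called, and how many fell in suspension depends on which libraries enter the fit. With all 6 libraries, 1 member rose, 14 fell and 64 were not called in SDF1 against DF1 (background 18.8% higher and 12.8% lower, or 31.6% in all, against 17.7% of the members lower), with a median of -0.18 against 0.09 over all rows. Replicate 3 of DF1 was the lowest of its group for 61 of the 79 genes, with a median offset of -0.60. Without it, 8 rose and 59 fell (background 40.1% and 33.3%) and the median was -0.38. All 15 earlier calls were among them, and 52 were added. The DF1 libraries of that fit, replicates 1 and 2, also differ from SDF1 in ATP8, the gene that split the sets of libraries. They held 344.5 and 482 normalized reads of it, against 932 or more in DF1 replicate 3 and SDF1. Whether what lies behind the ATP8 split has a part in the 59 falls was not tested. Leaving out another library gave 4 to 9 calls where the count moved by over 1.5 times: 4, 5 and 4 without SDF1 replicates 1, 2 and 3, and 9 without DF1 replicate 1. ATP5L, a membrane subunit of the ATP synthase, shows the spread: it was at 3198, 3179.9 and 744 in DF1 and 1830, 1760.4 and 1895 in SDF1. NDUFC2 was at 1428, 1383 and 287 and 703, 683 and 675. In both genes SDF1 lay below replicates 1 and 2 of DF1 and above replicate 3.

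DF1 replicate 3 also differed in other genes. The mtDNA genes took 5.13% of it against 2.27% and 2.56% in replicates 1 and 2. LDHA, lactate dehydrogenase, was at 24718, 25974 and 58945 in DF1. The 10 measured hypoxia genes, LDHA among them, summed to 0.746% against 0.399% and 0.4%. In normalized reads these sums were 33900, 35220 and 70760 in replicates 1 to 3, so most of each was LDHA. Cytosolic ribosomal protein genes took 4.06% against 6.95% and 6.97%. CDH5, an endothelial cadherin, was at 139, 159 and 2453. The 5 measured endothelial markers, CDH5 among them, summed to 0.0262% against 0.00183% and 0.00202%. In normalized reads these sums were 155, 177.3 and 2487 in replicates 1 to 3, so nearly all of each was CDH5. ATP5A1W was at 186, 199 and 1086. Whether these differences have a part in the low member levels was not tested.

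A few members differed between DF1 and SDF1 in the same way in all libraries. NDUFS6, an accessory subunit with a zinc site, was at 419, 420.1 and 428 in DF1 and 261, 247 and 225 in SDF1, and COX4I1 at 3235, 3338 and 2757 and 1803, 1804 and 1774. Both were apart and fell, by -0.79 ± 0.10, adjusted p = 0.00351, and by -0.79 ± 0.10, adjusted p = 0.00426. NDUFV2, the small iron-sulfur subunit of the NADH module, fell from 1457, 1475 and 1349 to 905, 924 and 863 (-0.67 ± 0.08, adjusted p = 0.00382), also without overlap. ATP5G1, at 1908, 2165 and 1248 and 1012, 1016 and 1005, fell, changing by -0.77 ± 0.21, adjusted p = 0.0407; that call was lost without SDF1 replicate 1, SDF1 replicate 2, SDF1 replicate 3, DF1 replicate 1 or DF1 replicate 2 (adjusted p up to 0.132). COX7A2L fell from 564, 538 and 446 to 321, 320.1 and 335 (-0.66 ± 0.12, adjusted p = 0.0108), and that call was lost without SDF1 replicate 1, SDF1 replicate 2 or SDF1 replicate 3 (adjusted p up to 0.0639). The mtDNA genes fell too, with 8 of 9 lower (median -2.11) and 0.536% to 0.753% of the SDF1 libraries; with 1 library left out 3 to 8 fell, with 3 falls without SDF1 replicate 1 or 3 and 5 without SDF1 replicate 2.

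**Figure D5:**
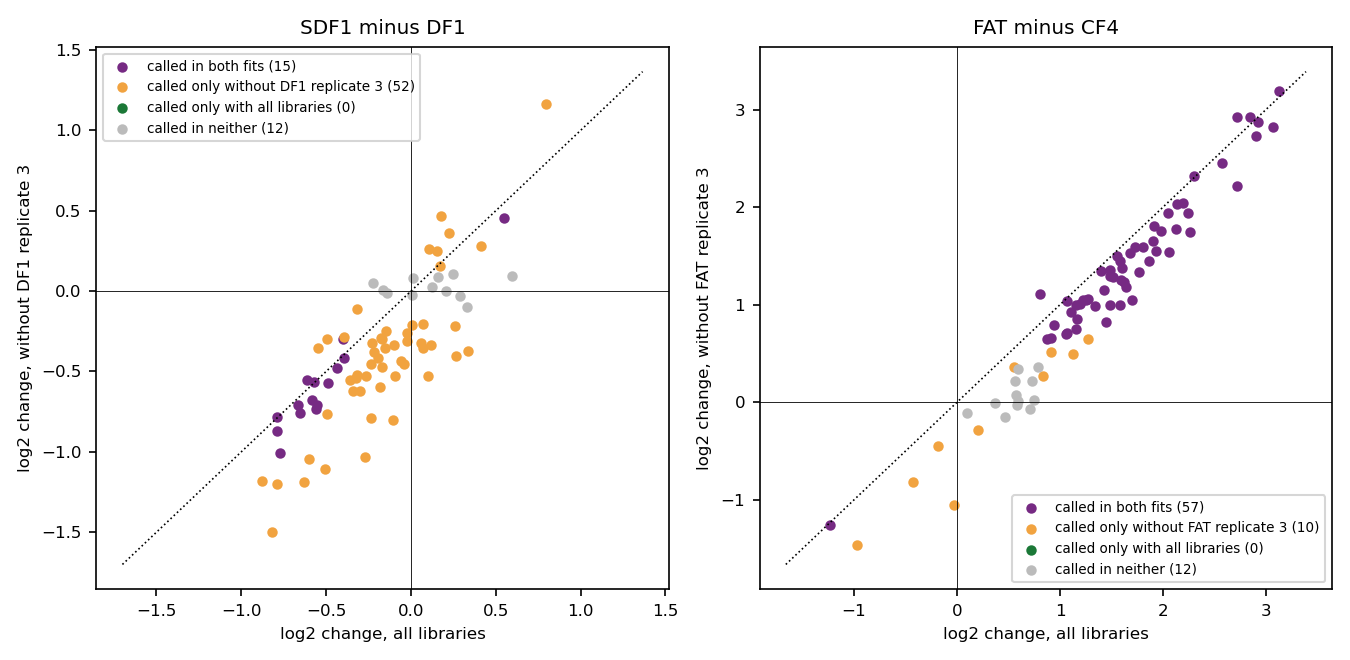
Log2 change of each member with all libraries (x axis) and without 1 library (y axis), at left SDF1 minus DF1 without DF1 replicate 3 and at right FAT minus CF4 without FAT replicate 3; the dotted line marks equal values and colours show in which fit a member was called. At left 15 members were called in both fits and 52 only without the library, and at right 57 in both and 10 only without it.

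FAT had the highest mean of the 9 groups for 65 of the 79 members, and for 48 without FAT replicate 3; every FAT library also has a larger sum over all rows than any library of cultured fibroblasts. In FAT against CF4, 56 rose and 1 fell (background 42.7% and 25.8%, or 68.5% in all), and the median was 1.40 against 0.40 over all rows. Quantile normalization moves the all-row median to -0.23 and gave 50 higher and 2 lower (background 28.7% and 38%) with a median of 1.11. For 26 members all 3 FAT libraries lay above the 24 other libraries. No share over all rows stands beside these counts of members highest in FAT, so they do not set the family apart from other genes. NDUFS5 was at 3171, 2311 and 2401 in FAT against 284, 303 and 301 in CF4 (3.13 ± 0.16, adjusted p = 1.34e-05), and its other cultures ranged from 368 to 1279. COX7C, a small membrane subunit of complex IV, was at 3083, 2830.2 and 4936 against 398, 437 and 414 (3.07 ± 0.23, adjusted p = 5.82e-05). NDUFB2, of the membrane arm of complex I, was at 2691, 1495 and 2228 against 282, 272 and 265 (2.93 ± 0.23, adjusted p = 6.89e-05). In all 3 genes every FAT library lay above every CF4 library.

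FAT replicate 3 was the highest of its group for 70 of the 79 members, and it held skeletal muscle mRNA. The 13 measured muscle markers took 7.73% of it against 0.177% and 0.663% in replicates 1 and 2, with ACTA1 at 14272, 50631 and 743530. The 7 measured adipocyte markers went the other way, 0.444% against 1.9% and 1.17%. All FAT libraries also held endothelial (0.0396% to 0.182%) and macrophage or blood markers (0.0695% to 0.176%). NDUFS1 was at 752, 1237 and 8095 in FAT and SDHA at 1056, 1486 and 5748, and for both CF4 (1937 to 2045 and 1216 to 1256) lay inside the FAT range. Neither was called (changes of -0.03 and 0.75). UQCRC1 (1274, 1634 and 7328) and ATP5B (7829, 7599.6 and 25887) were spread in the same way. Without replicate 3, 61 members rose and 6 fell (background 43.2% and 34.9%), with a median of 1.05 against 0.17. In normalized reads the rise was thus present in replicates 1 and 2 with smaller size. As a share of the library the difference was small, with 0.856% and 0.892% in replicates 1 and 2 against 0.794% to 0.821% in CF4. These shares are of all reads, and mtDNA genes took 15.9% and 13.8% of FAT replicates 1 and 2 but 0.464% to 0.673% of CF4. The part of muscle in the remaining change was not tested.

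By complex, the FAT median was highest for complex IV (1.64, 8 of 9 called higher) and the ATP synthase (1.62, 12 of 15), then complex II (1.41, 3 of 4), complex III (1.31, 4 of 8) and complex I (1.26, 25 of 34), and lowest for the assembly factors (0.58, 4 of 8). Over all rows 42.7% were called higher, with a median of 0.40, so 4 of 8 is near the share of all rows. Without FAT replicate 3 the order was another: 1.24 for the ATP synthase, 1.18 for complex IV, 0.99 for complex II, 0.97 for complex I, 0.745 for complex III and 0.466 for the assembly factors. Whether these medians differ was not tested. The mtDNA genes rose in all 9 cases, with a median of 5.40 (3.60 with quantile normalization), and took 15.9%, 13.8% and 10.4% of replicates 1 to 3. Replicate 3, highest in the nuclear members and in muscle markers, was the lowest in mtDNA share.

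Other genes of mitochondrial energy metabolism were counted in the same way. Of 32 measured of 40 assembly factors outside the rule, 17 rose and 6 fell in SCF2 against CEF2 and 20 rose and 4 fell in SCF4 against CEF4 (medians 0.47 and 0.61), against the backgrounds given above. Of 12 measured of 13 genes of the citric acid cycle, 4 rose and 2 fell in SCF2 and 9 rose and 1 fell in SCF4. Of 8 genes of mitochondrial carriers and cytochrome c, 1 rose and 2 fell in SCF2 and 3 rose and 2 fell in SCF4 (medians -0.06 and 0.13). Of 9 measured regulators of mitochondrial genes, 4 rose and 1 fell in each line. TFAM, which packages and transcribes mtDNA, rose in SCF2 (1.04 ± 0.12, adjusted p = 3.85e-06), from 415, 462 and 458 to 769, 894 and 1106, and was not called in SCF4 (0.19 ± 0.12). The difference between the lines was called (-0.85 ± 0.17, adjusted p = 0.00152). PPARGC1A, a coactivator known to raise respiratory genes, was at 0 to 2.77 in the 9 libraries of line 2 and 0 in all 3 CEF4 libraries, but at 32.8, 31.0 and 34.1 in CF4 and 8.94, 15.2 and 8.13 in SCF4.

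The authors' deposited table of their own comparison lists 33 of the members in each line, and their adjusted p-values called 18 higher in suspension and 2 lower in line 2 and 20 higher and 2 lower in line 4. Of all 6424 rows of the authors' deposited table, 29.5% were called higher and 43.8% lower in line 2 (73.3% in all), and 30.6% higher and 40.5% lower in line 4 (71.1% in all). The direction of the authors' deposited table was read from its correlation with the changes computed here (r = -0.98 over 5445 and 5448 matched rows), which is negative, so it was read as primary minus suspension. Across the 27 libraries most members followed the rest of the family: the correlation of a gene with the median of the other 78 was 0.75 in the middle of the list, highest for UQCRQ (0.958) and lowest for NDUFAF7 (-0.08). Over the 24 libraries outside FAT it was 0.64 in the middle of the list and lowest for NDUFS5 (-0.25, against 0.477 over all 27). ATP5S was at 0.04 over all libraries and 0.82 over the 24 outside FAT. These correlations share libraries and depth and are descriptions only.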

How the data were processed

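Expression was measured by RNA-seq of 27 libraries. The main table holds a signal per gene symbol, which per the deposited values is reads divided by 1 factor per library: all values came out as whole reads within a tolerance of 0.01. Its name calls the values TPM, but they are not scaled by length or to a fixed sum. How the factors were made is not stated in the labels or headers. The authors also deposited counts per Ensembl gene for 12 libraries (23402062 to 53355731 per library), which were used only for depth, since no table used here pairs their IDs with symbols. In the authors' deposited comparison tables log2 fold changes, their standard errors, a mean signal per gene, a score (fold change over its error), and p-values are given. Bowtie2, RSEM, DESeq2 and galGal6 are named in the submitters' processing notes without roles. The main table also held 17 rows whose symbols were turned into dates, none a member.

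Rows with 1 or more in at least 3 fitted libraries were tested on log2(value + 1) with limma 3.58.1 in R 4.3.3 (eBayes with trend and robust), and p-values were adjusted by Benjamini-Hochberg over all rows tested; a call is an adjusted p under 0.05. CEF and SCF were fitted on 12 libraries, comparisons with CF on 18, and SDF1 against DF1 and FAT against CF4 on their own 6. A fold change on this scale understates that of low genes. Alternatives were no filter, a filter of 10, a pseudocount of 0.1, quantile normalization, edgeR 4.0.16 (quasi-likelihood, TMM) on the recovered reads, the replicate number as a block, other libraries in the fit, and each library left out. The fits were tested on simulated data. Tables and figures used Python 3.11.15, pandas 2.3.3, numpy 2.4.6 and matplotlib 3.10.9.

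Named genes were a set of described subunits plus, for each comparison, up to 3 largest rises and 3 largest falls among members called with a mean of 100 or more in the higher group and no overlap between groups. A member that the rule takes enters all counts, and its own values are not reported here. Genes named outside that rule were chosen after their values were seen. The members, the lists and the tests were chosen with earlier results of these data known. Where nothing says that replicates came from separate isolations, p-values measure the spread between these libraries only.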

Additional observations from a re-analysis of the deposited data

Results flagged for a closer look

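For 10 of the 79 members the change from primary to suspension culture differed between lines 2 and 4. The test of that difference was a limma interaction (Benjamini-Hochberg over all rows), and its call is what brings them here. Of all rows tested, 39.2% were called in it, a larger share than of the members. Each value is the log2 change in line 4 less that in line 2. UQCRC1 gave 1.30 ± 0.21 (adjusted p = 0.000261), with -0.46 in line 2 and 0.84 in line 4. NDUFV3 gave -1.17 ± 0.21 (adjusted p = 0.000557), with 0.58 and -0.59. NDUFS4 gave 0.99 ± 0.18 (adjusted p = 0.000694), with -0.997 in line 2 and -0.00 in line 4. NDUFS1 gave 0.60 ± 0.15 (adjusted p = 0.00624), NDUFAF5 gave -0.98 ± 0.26 (adjusted p = 0.00937) and SDHD gave 0.67 ± 0.19 (adjusted p = 0.0131). These 6 were called with each library left out in turn.

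The other 4 lost their call in at least 1 such fit. NDUFA4 gave 1.18 ± 0.38 (adjusted p = 0.0246), with -0.27 in line 2 and 0.92 in line 4. NDUFAF2 gave 0.79 ± 0.26 (adjusted p = 0.027), ATP5A1Z gave 0.62 ± 0.23 (adjusted p = 0.045) and NDUFB9 gave -0.75 ± 0.28 (adjusted p = 0.0456). NDUFB9 was also not called after quantile normalization, and the ATP5A1Z reads may be split with its W copy. NDUFS4, NDUFAF2 and ATP5A1Z lie on the Z chromosome, and the part of cell sex in their line differences was not tested.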

How the results depend on the processing

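No alternative reversed the direction of a member called. Counts of calls stayed within 1.5 times the reported ones except as follows. SDF1 against DF1, 15 calls, gave 3 with the replicate number as a block, 26 with CF2 and CF4 in the fit, and 4 to 67 with 1 library left out. With 1 library left out, the line difference gave 6 to 10 calls (6 without CEF2 replicate 2), CEF4 against CEF2 5 to 11 (5 without CEF2 replicate 1) and SCF2 against CF2 16 to 26 (16 without CF2 replicate 1). The range was 36 to 51 for SCF2 and 32 to 51 for SCF4 over CEF, 36 to 40 for CF2 and 33 to 40 for CF4 over CEF, 38 to 51 for SCF4 over CF4, and 50 to 67 for FAT over CF4. The cause of these moves was not tested. Same-numbered libraries of different groups did not deviate together (r = -0.29 to 0.15), so the numbers were not taken as pairs; with the block the other counts were 46, 45, 9, 8, 40, 39, 25, 51 and 59 in the order of SCF2 and SCF4 against CEF, the line difference, CEF4 against CEF2, CF2 and CF4 against CEF, SCF2 and SCF4 against CF, and FAT. Over members and comparisons, quantile normalization kept 746 calls or non-calls, ended 21 and added 23, and edgeR kept 752, ended 23 and added 15. The planned edgeR and DESeq2 fits on the counts per Ensembl gene were not run, since members could not be matched to those IDs. FAT, with 4612848 to 10435094 reads, has the coarsest values, 1.52 to 3.16 normalized reads per read.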

Other observations

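SLC25A4, the ADP/ATP carrier of muscle and heart (ANT1), is outside the family by its symbol. It was at 466 to 493 normalized reads in CEF2 and 321 to 410 in CEF4, and at 0 to 1.91 in the 15 libraries of CF2, CF4, SCF2, SCF4 and SDF1, that is a few reads at most. DF1 held 0.499, 0 and 33.7 in replicates 1 to 3, and FAT 667, 3280 and 45437. The carriers SLC25A5 and SLC25A6 stayed present in all groups: SLC25A5 rose in SCF2 (0.87 ± 0.13, adjusted p = 3.10e-05) and SCF4 (0.57 ± 0.13, adjusted p = 0.00119) against CEF, and SLC25A6 was at 6115 or more in every library.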
